A study of Homo sapiens with 3 samples.

Results

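A set of 9 genes of HLA class I antigen presentation was followed, by RNA sequencing, across 3 established lines of human prostate cancer. They were chosen by gene symbol, 9 of the 58735 annotated genes: HLA-B, HLA-C, B2M, TAP1, TAP2, PSMB8, PSMB9, ERAP2 and NLRC5. PC3 and DU145, established from a bone and a brain metastasis, stood for castration-resistant prostate cancer in the series design. LNCAP, established from a lymph node metastasis and responsive to androgen, stood for the androgen-dependent form. No treatment, genotype change or time point was labelled for any of the 3 lines. Total RNA, 4 ug per library, was sequenced from 1 library per line, so no difference has a replicate check, and a class of cancer is here 1 or 2 lines. Several culture media were listed without saying which line received which.

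Class I molecules display fragments of a cell's own proteins at its surface, where cytotoxic T cells read them. A proteasome, in some cells built with the inducible immunoproteasome subunits, cuts proteins into peptides, the TAP transporter moves these into the endoplasmic reticulum, peptidases trim them, and they are loaded on a heavy chain that is bound to beta-2 microglobulin. NLRC5 acts in the nucleus on the promoters of some of these genes, and interferon gamma raises most of the set. Tumours, prostate cancers among them, are known to lower parts of this machinery.

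DU145 had the highest normalised level of all 9 genes. PC3 had the lowest level of 6 genes (HLA-B, HLA-C, B2M, TAP1, PSMB9 and NLRC5), and LNCAP had the lowest level of the other 3 (TAP2, PSMB8 and ERAP2). The 2 castration-resistant lines were therefore at opposite ends of the range for 6 genes and on the same side of LNCAP for 3. How many of all tested genes had either order was not counted. The widest gaps were in HLA-B, which was 28.2-fold lower in PC3 than in DU145, and in PSMB8, which was 27.0-fold higher in PC3 and 47.4-fold higher in DU145 than in LNCAP. B2M had the narrowest range, at most 1.42-fold in any pair.

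Of the genes, 6 lie in the major histocompatibility complex on chromosome 6 (GRCh38, coordinates of the deposited gene models). HLA-B (ENSG00000234745) spans 31269491 to 31357188 on the minus strand, and HLA-C (ENSG00000204525) spans 31268749 to 31272130 on the same strand. TAP2 (ENSG00000204267, 32821833 to 32838780, minus strand), PSMB8 (ENSG00000204264, 32840717 to 32844703, minus strand), TAP1 (ENSG00000168394, 32845209 to 32853978, minus strand) and PSMB9 (ENSG00000240065, 32844136 to 32859585, plus strand) sit side by side. B2M (ENSG00000166710) is on chromosome 15 from 44711487 to 44718877, plus strand. ERAP2 (ENSG00000164308) is on chromosome 5 from 96875939 to 96919716, plus strand. NLRC5 (ENSG00000140853) is on chromosome 16 from 56989485 to 57083531, plus strand.

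The promoters are shown because these genes are known to share control elements, and because neighbouring genes among them, such as TAP1 and PSMB9, differed between the libraries by unlike amounts. RefSeq windows of 300 bases (GRCh38.p14), from 250 bases before to 50 bases after a start site, were found for all of the genes but NLRC5, 8 of 9, with 11 windows in all. The 6 windows printed are chr6:31357130-31357429 (HLA-B, minus strand), chr6:31272043-31272342 (HLA-C, minus strand), chr15:44711267-44711566 (B2M, plus strand), chr6:32853655-32853954 (TAP1, minus strand), chr6:32853942-32854241 (PSMB9, plus strand) and chr6:32843998-32844297 (PSMB8, minus strand). Each reads 5′ to 3′ along its gene, and capitals mark matches, on either strand, to GAAANNGAA or GAANNGAAA (the interferon-response repeat in both orders), TTCNNNGAA (gamma-activated), GGGNNTTCC (NF-kB-like), CCAAT and TGACG (CRE). Adjoining or overlapping matches run together as 1 stretch of capitals.
HLA-B: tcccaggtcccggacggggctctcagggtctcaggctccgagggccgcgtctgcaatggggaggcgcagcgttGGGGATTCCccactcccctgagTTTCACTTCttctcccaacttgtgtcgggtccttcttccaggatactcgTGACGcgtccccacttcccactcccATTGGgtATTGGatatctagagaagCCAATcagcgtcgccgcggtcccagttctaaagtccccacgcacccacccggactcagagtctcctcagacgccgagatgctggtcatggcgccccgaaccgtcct
HLA-C: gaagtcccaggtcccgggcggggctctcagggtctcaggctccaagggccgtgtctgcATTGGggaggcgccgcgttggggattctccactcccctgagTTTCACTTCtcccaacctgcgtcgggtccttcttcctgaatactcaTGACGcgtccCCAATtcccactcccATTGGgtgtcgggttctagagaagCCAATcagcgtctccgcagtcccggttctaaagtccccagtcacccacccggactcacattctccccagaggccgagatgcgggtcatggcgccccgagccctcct
B2M: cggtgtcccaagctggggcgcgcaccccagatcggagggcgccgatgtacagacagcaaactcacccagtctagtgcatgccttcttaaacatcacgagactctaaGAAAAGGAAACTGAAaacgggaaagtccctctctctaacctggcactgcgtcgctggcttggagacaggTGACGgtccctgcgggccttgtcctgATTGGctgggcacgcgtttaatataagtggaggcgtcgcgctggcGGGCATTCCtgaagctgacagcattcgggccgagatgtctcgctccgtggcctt
TAP1: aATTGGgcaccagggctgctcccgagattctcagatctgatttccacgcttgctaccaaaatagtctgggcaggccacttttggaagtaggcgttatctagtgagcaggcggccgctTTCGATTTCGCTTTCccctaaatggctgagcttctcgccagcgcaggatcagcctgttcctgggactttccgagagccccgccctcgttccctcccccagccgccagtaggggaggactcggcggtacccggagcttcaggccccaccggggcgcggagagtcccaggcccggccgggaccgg
PSMB9: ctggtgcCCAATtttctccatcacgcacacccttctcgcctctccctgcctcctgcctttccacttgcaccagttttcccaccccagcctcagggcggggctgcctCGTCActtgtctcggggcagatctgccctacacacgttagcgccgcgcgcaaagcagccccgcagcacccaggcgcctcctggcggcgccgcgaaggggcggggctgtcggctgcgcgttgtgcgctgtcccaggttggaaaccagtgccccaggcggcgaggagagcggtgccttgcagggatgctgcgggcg
PSMB8: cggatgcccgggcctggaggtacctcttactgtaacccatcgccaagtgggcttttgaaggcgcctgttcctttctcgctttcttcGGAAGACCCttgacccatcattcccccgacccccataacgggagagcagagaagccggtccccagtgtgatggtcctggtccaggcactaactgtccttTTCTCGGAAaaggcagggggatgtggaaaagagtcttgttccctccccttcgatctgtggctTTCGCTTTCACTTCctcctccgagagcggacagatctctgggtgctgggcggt

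The interferon-response pattern, in either order, was found in the windows of 7 of the 8 genes (B2M, ERAP2, HLA-B, HLA-C, PSMB8, TAP1 and TAP2), that is in 7 of their 11 windows, against 14.5% of all 35116 windows. PSMB9 had no match in its window. With the start site as position 1, the match began at -155 in HLA-B and at -151 in HLA-C, with the same 9 letters, TTTCACTTC. In both heavy chain windows a TGACG and a CCAAT followed, the TGACG at -106 in HLA-B and at -105 in HLA-C. HLA-B had in addition a GGGNNTTCC match at -177 that was not found in the HLA-C window. That pattern stood in 6.58% of all windows and, among these genes, in HLA-B, PSMB8 and B2M. TTCNNNGAA stood in 7.66% of all windows, and in PSMB8 and TAP1 here. The TAP1 match to TTCNNNGAA lies in its other window (chr6:32852712-32853011, minus strand), which is not printed. CCAAT was found in 5 of the genes (HLA-C, HLA-B, TAP1, PSMB9 and B2M) and in 34.6% of all windows, and TGACG in 6 (HLA-C, HLA-B, TAP2, PSMB8, PSMB9 and B2M) and in 24.6%. The PSMB8 match to TGACG lies in its other window (chr6:32844630-32844929, minus strand), which is not printed either. The printed TAP1 and PSMB9 windows run in opposite directions and share 13 bases. These matches describe letters and not binding, and no match means only that the letters are not in the window.

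Levels are given as normalised CPM, each gene's counts relative to the library total (CPM) after scaling by the TMM method, which corrects for differences in RNA composition. The library totals were 15319045 counts in PC3, 15878546 in DU145 and 15393103 in LNCAP. A gene was called 4-fold apart in a pair of libraries when the log2 ratio of scaled counts, computed after adding 0.5, reached 2 in either direction and the exact 95% counting interval left out a ratio of 1. All 9 genes were among the 18025 tested, which reached 1 CPM in some library. The counting intervals excluded 1 in all 27 member ratios, but they cover counting error only and compare libraries, not lines. How often they excluded 1 over all tested genes was not counted. Both comparisons with LNCAP use the same LNCAP library. As in any bulk sample, fewer cells with a transcript and less of it per cell cannot be told apart.

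The labels were checked against markers. KLK3, which encodes prostate-specific antigen, had 0 counts in PC3 and in DU145 and 35507 in LNCAP. Mitochondrial genes took 4.35% of the counts in PC3, 5.6% in DU145 and 7.97% in LNCAP. The 3 epithelial markers summed to 454.7 normalised CPM in PC3, 1609 in DU145 and 737.8 in LNCAP. A list of 10 leukocyte and antigen-presenting cell markers summed to 1.44 normalised CPM in PC3 with 5 markers at 0, to 24.5 in DU145 with 4 at 0, and to 6.33 in LNCAP with 4 at 0. Most of the DU145 sum was CD74 (254 counts) and CD79A (95 counts), while the T and B cell genes CD3D, CD3E and MS4A1 were at 0 in all 3 libraries. The part of these markers in the class I levels was not tested.

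**Figure D1:**
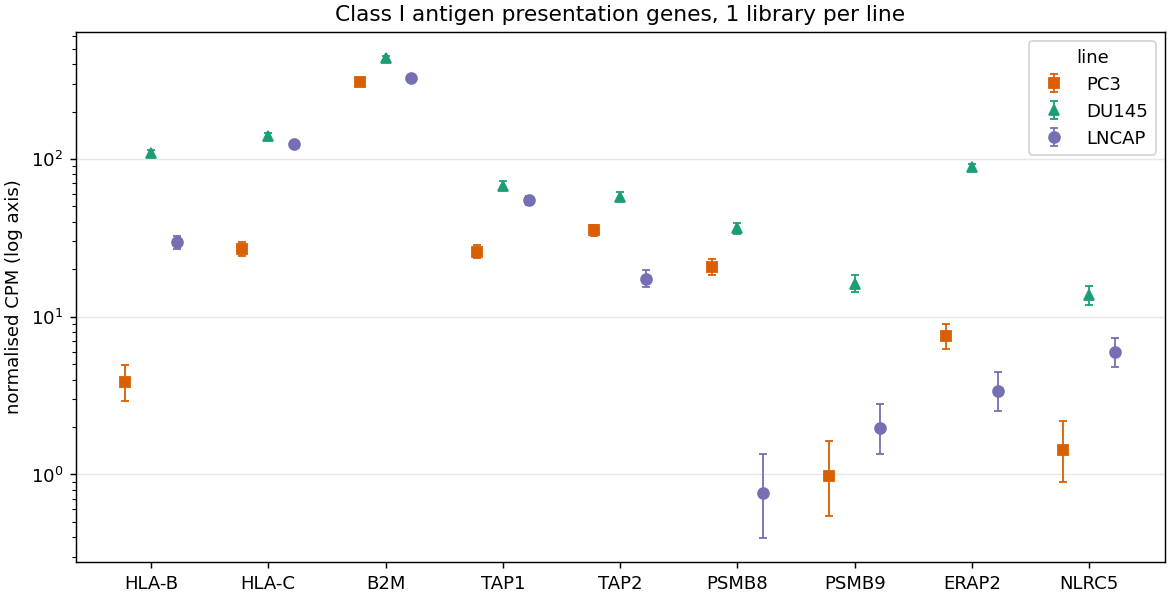
Normalised CPM (log axis) of the 9 genes in PC3, DU145 and LNCAP, 1 library per line, with exact 95% counting intervals. DU145 is highest for all 9 genes, and PC3 is lowest for 6, with HLA-B at 3.86 in PC3, 109 in DU145 and 29.6 in LNCAP.

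In PC3 against LNCAP, 1 of the 9 genes was called higher (PSMB8) and 3 were called lower (HLA-B, HLA-C and NLRC5), where 13.0% of all tested genes were called higher and 13.3% lower. In DU145 against LNCAP, 3 were called higher (PSMB8, PSMB9 and ERAP2) and 0 lower, where 13.7% of all tested genes were called higher and 12.1% lower. In PC3 against DU145, 0 were called higher and 5 lower (HLA-B, HLA-C, PSMB9, ERAP2 and NLRC5), where 8.54% were called higher and 10.6% lower. The median log2 ratio of the 9 genes was -0.99 in PC3 against LNCAP, 1.73 in DU145 against LNCAP and -2.38 in PC3 against DU145. Over all tested genes the median was -0.01 in PC3 against LNCAP, -0.00 in DU145 against LNCAP and 0.02 in PC3 against DU145.

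**Figure D2:**
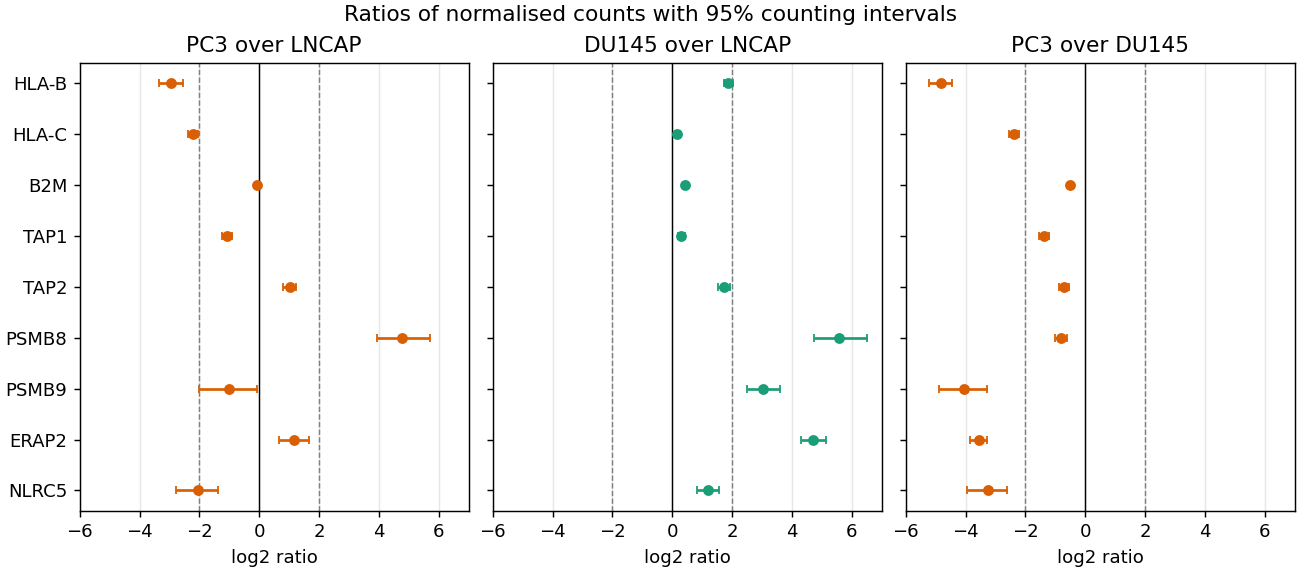
Log2 ratios of TMM-scaled counts with exact 95% counting intervals for PC3 over LNCAP, DU145 over LNCAP and PC3 over DU145; dashed lines mark 4-fold. All 9 genes lie to the right of 0 in DU145 over LNCAP and to the left of 0 in PC3 over DU145, while PSMB8, TAP2 and ERAP2 lie to the right in PC3 over LNCAP.

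The heavy chains form the groove that holds the peptide. HLA-B stood at 3.86 normalised CPM (59 counts) in PC3, 109 (1707 counts) in DU145 and 29.6 (463 counts) in LNCAP. PC3 was thus low, LNCAP intermediate and DU145 high. HLA-B was 7.67-fold lower in PC3 than in LNCAP (95% counting interval 5.84 to 10.2) and 28.2-fold lower than in DU145 (21.8 to 37.2), both past the 4-fold call. In DU145 it was 3.68-fold higher than in LNCAP (3.32 to 4.09), a log2 ratio of 1.88 that did not reach the call.

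HLA-C, the other heavy chain and a ligand of natural killer cell receptors, followed another order of sizes. It stood at 26.9 normalised CPM (411 counts) in PC3, 140.0 (2194 counts) in DU145 and 124.4 (1945 counts) in LNCAP. DU145 and LNCAP were close, and PC3 was apart from both. HLA-C was 4.62-fold lower in PC3 than in LNCAP (4.16 to 5.16) and 5.21-fold lower than in DU145 (4.68 to 5.8). In DU145 it was 1.13-fold higher than in LNCAP (1.06 to 1.2), not called.

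The counts of HLA-B and HLA-C summed to 470 in PC3, 3901 in DU145 and 2408 in LNCAP. If reads that fit both genes were each counted once, the sum does not depend on how they were divided between them. Reads that were dropped, counted for both genes or shared with other genes could still change it. It was 5.01-fold lower in PC3 than in LNCAP (4.53 to 5.54), 1.62-fold higher in DU145 than in LNCAP (1.54 to 1.7) and 8.1-fold lower in PC3 than in DU145 (7.36 to 8.93). HLA-B made up 12.6% of the sum in PC3 (exact binomial interval 9.7 to 15.9), 43.8% in DU145 (42.2 to 45.3) and 19.2% in LNCAP (17.7 to 20.9). The makeup of the heavy chain counts thus differed between the libraries beyond counting error.

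How far the genes could share reads was read from the reference transcripts. Of all 50-base stretches of an HLA-B transcript, 2.54% recurred in other genes, and 2% in HLA-C. For HLA-C these shares were 6.79% in other genes and 2.02% in HLA-B. At 100 bases the share in other genes was 0% for HLA-B and 0.278% for HLA-C. The HLA-B model also overlaps part of the HLA-C model on the same strand, with 35 exon bases in common. How the submitters' counting handled reads with several matches is not given in the sources used, and the alleles of each line, which can differ from the reference, were not tested for their part in these counts.

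B2M, the light chain that every class I molecule needs, was the steadiest gene. It stood at 308.4 normalised CPM (4713 counts) in PC3, 437.1 (6848 counts) in DU145 and 325 (5083 counts) in LNCAP. PC3 and LNCAP were near each other and DU145 was somewhat higher. The log2 ratio was -0.08 in PC3 against LNCAP, 0.43 in DU145 against LNCAP and -0.50 in PC3 against DU145, and none was called.

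TAP1 and TAP2 encode the chains of the peptide transporter, which works as a pair of unlike chains. TAP1 stood at 25.9 normalised CPM (396 counts) in PC3, 67.9 (1064 counts) in DU145 and 54.9 (858 counts) in LNCAP. TAP2 stood at 35.3 normalised CPM (539 counts) in PC3, 57.8 (906 counts) in DU145 and 17.5 (273 counts) in LNCAP. PC3 was the low library for TAP1 and LNCAP was the low library for TAP2. TAP1 was 2.12-fold lower in PC3 than in LNCAP (1.88 to 2.39), 1.24-fold higher in DU145 than in LNCAP (1.13 to 1.36) and 2.62-fold lower in PC3 than in DU145 (2.33 to 2.95). TAP2 was 2.02-fold higher in PC3 than in LNCAP (1.74 to 2.35), 3.31-fold higher in DU145 than in LNCAP (2.89 to 3.81) and 1.64-fold lower in PC3 than in DU145 (1.47 to 1.83). None of these 6 ratios was called.

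TAP1 took 42.4% of the TAP1 and TAP2 counts in PC3 (39.2 to 45.6), 54% in DU145 (51.8 to 56.2) and 75.9% in LNCAP (73.3 to 78.3). The balance between the chains was therefore different in each library. Per length, TAP1 over TAP2 was 0.977 in PC3, 1.56 in DU145 and 4.18 in LNCAP, as a ratio of FPKM values. The exons of TAP2 share 2064 bases (32.3%) with a read-through gene on the same strand, AL669918.1, which had 0 counts in all 3 libraries. Of the 50-base stretches of a TAP2 transcript 35.8% recurred in other genes, and 35.2% of the 100-base stretches. How reads in these stretches were counted is not given in the sources used, so the TAP2 level and its ratio to TAP1 are uncertain.

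PSMB8 and PSMB9 encode catalytic subunits of the immunoproteasome, which take the places of PSMB5 and PSMB6 in the standard proteasome. PSMB8 stood at 20.7 normalised CPM (317 counts) in PC3, 36.4 (570 counts) in DU145 and 0.767 (12 counts) in LNCAP. LNCAP had few PSMB8 counts and both other lines had many. PSMB8 was 27.0-fold higher in PC3 (15.3 to 52.9) and 47.4-fold higher in DU145 (26.9 to 92.3) than in LNCAP, both called, and 1.75-fold lower in PC3 than in DU145 (1.53 to 2.02), not called.

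PSMB9 differed from PSMB8 in which line was low. It stood at 0.982 normalised CPM (15 counts) in PC3, 16.2 (254 counts) in DU145 and 1.98 (31 counts) in LNCAP. Only DU145 had more than 2 normalised CPM. PSMB9 was 8.18-fold higher in DU145 than in LNCAP (5.62 to 12.3) and 16.5-fold lower in PC3 than in DU145 (9.83 to 29.9), both called. In PC3 against LNCAP it was 2.02-fold lower (1.06 to 4.03), not called.

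PSMB9 took 4.52% of the PSMB8 and PSMB9 counts in PC3 (2.55 to 7.34), 30.8% in DU145 (27.7 to 34.1) and 72.1% in LNCAP (56.3 to 84.7). LNCAP had 43 such counts in all, so its share is the least precise. PSMB10, the remaining immunoproteasome subunit, which takes the place of PSMB7, had 13 counts in PC3, 57 in DU145 and 104 in LNCAP. It was 7.82-fold lower in PC3 than in LNCAP (4.38 to 15.2) and 4.28-fold lower in PC3 than in DU145 (2.31 to 8.52), both called. On the FPKM scale, the highest of the 3 inducible subunits was PSMB8 in PC3 (6.87) and in DU145 (12.1), and PSMB10 in LNCAP (3.525).

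Each inducible subunit was below its standard counterpart on the FPKM scale in every library. PSMB5 over PSMB8 was 7.87 in PC3, 6.09 in DU145 and 359 in LNCAP. PSMB6 over PSMB9 was 210.0 in PC3, 19.5 in DU145 and 83.6 in LNCAP. PSMB7 over PSMB10 was 148 in PC3, 53.5 in DU145 and 20.2 in LNCAP. The widest gap was PSMB8 in LNCAP and the narrowest was PSMB8 in DU145. Each standard subunit varied by under 2-fold between the libraries: the log2 ratio of normalised counts against LNCAP was -0.76 in PC3 and -0.32 in DU145 for PSMB5, 0.32 in PC3 and 0.93 in DU145 for PSMB6, and -0.10 in PC3 and 0.53 in DU145 for PSMB7.

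**Figure D3:**
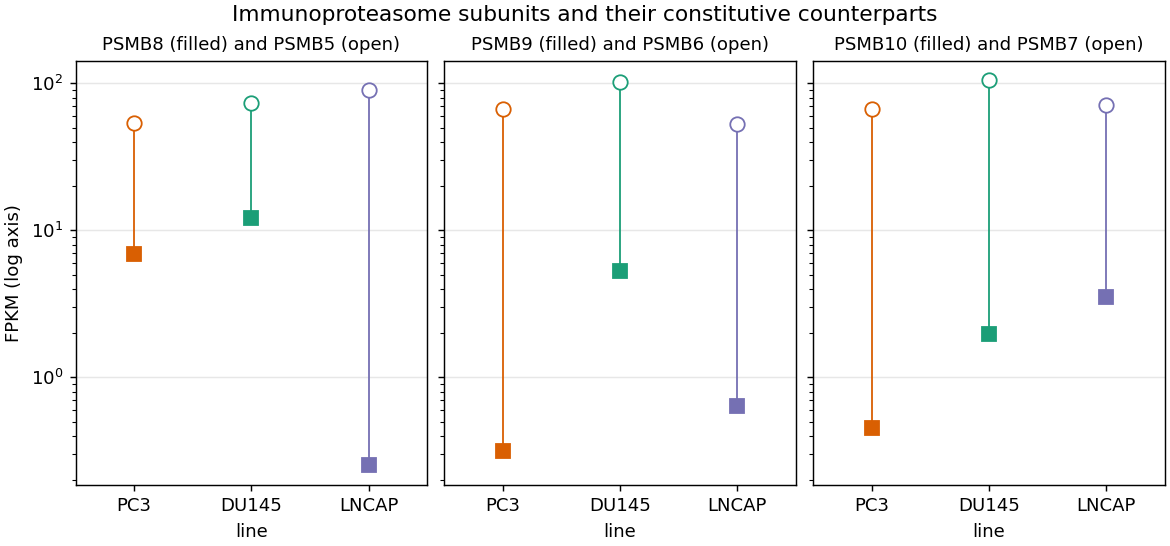
FPKM (log axis) of the immunoproteasome subunits PSMB8, PSMB9 and PSMB10 (filled squares) and of the standard subunits PSMB5, PSMB6 and PSMB7 (open circles) in PC3, DU145 and LNCAP, 1 library per line. The longest connecting line is PSMB8 in LNCAP, where PSMB5 over PSMB8 is 359.

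PSMB9 lies on the strand opposite PSMB8 and TAP1, and its gene model overlaps both. Of the PSMB8 exon bases 618 (20.6%) lie opposite exons of PSMB9 or of the antisense RNA gene PSMB8-AS1, and 139 PSMB9 exon bases (4.52%) lie opposite PSMB8. TAP1 has 456 exon bases (9.49%) opposite PSMB8-AS1, and PSMB9 shares 174 exon bases (5.66%) with it on its own strand. PSMB8-AS1 had 4 counts in PC3, 21 in DU145 and 5 in LNCAP. Whether the counting used strand is not given in the sources used, so reads in these stretches cannot be assigned with certainty.

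ERAP2 encodes an aminopeptidase of the endoplasmic reticulum that trims peptides to fit the groove. It stood at 7.52 normalised CPM (115 counts) in PC3, 88.7 (1390 counts) in DU145 and 3.39 (53 counts) in LNCAP. DU145 was far above both other libraries. ERAP2 was 26.2-fold higher in DU145 than in LNCAP (19.9 to 35.1) and 11.8-fold lower in PC3 than in DU145 (9.74 to 14.4), both called. In PC3 against LNCAP it was 2.22-fold higher (1.59 to 3.13), not called.

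ERAP1, the neighbouring gene for a related peptidase, had a smaller range: 30.3 normalised CPM (463 counts) in PC3, 64.7 (1014 counts) in DU145 and 40.1 (627 counts) in LNCAP. None of its ratios was called. ERAP2 took 19.9% of the counts of both in PC3 (16.7 to 23.4), 57.8% in DU145 (55.8 to 59.8) and 7.79% in LNCAP (5.89 to 10.1). No exon of ERAP2 overlaps an exon of another gene.

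**Figure D4:**
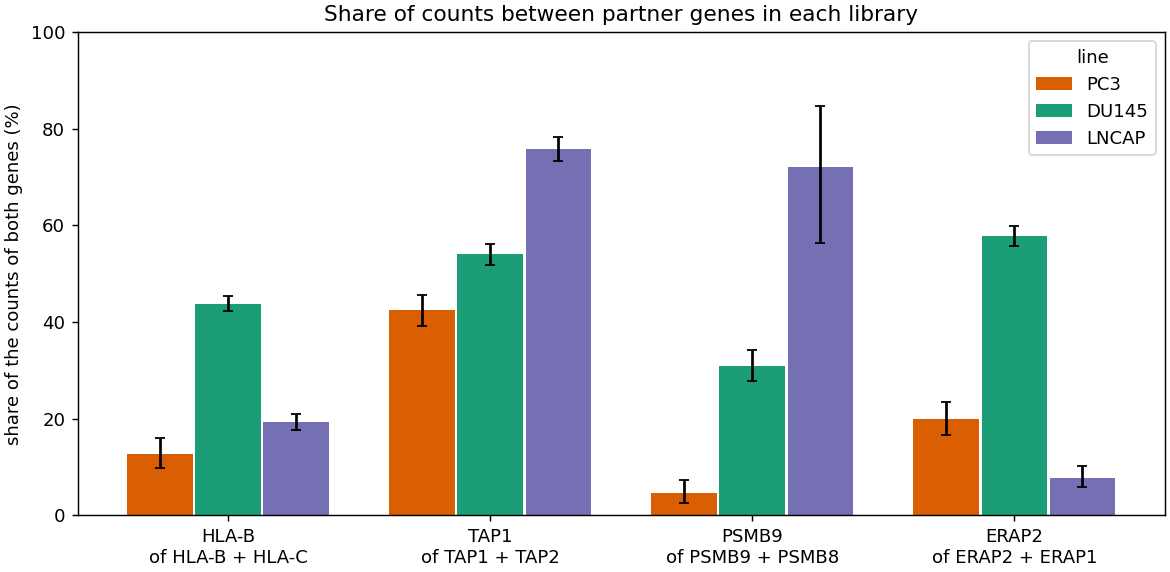
Share of counts (%) taken by HLA-B, TAP1, PSMB9 and ERAP2 in a pair with a partner gene, in PC3, DU145 and LNCAP, with exact binomial 95% intervals. TAP1 takes 42.4% in PC3, 54% in DU145 and 75.9% in LNCAP, and ERAP2 takes 57.8% in DU145.

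NLRC5, the class I transactivator, stood at 1.44 normalised CPM (22 counts) in PC3, 13.7 (214 counts) in DU145 and 5.95 (93 counts) in LNCAP. Its order, PC3 lowest and DU145 highest, was also that of HLA-B, HLA-C, B2M, TAP1 and PSMB9. NLRC5 was 4.13-fold lower in PC3 than in LNCAP (2.57 to 6.91), a log2 ratio of -2.02 that lay just past the call. It was 9.49-fold lower in PC3 than in DU145 (6.11 to 15.5), called, and 2.3-fold higher in DU145 than in LNCAP (1.79 to 2.96), not called. With 5 counts added, its log2 ratio in PC3 against LNCAP was -1.83, and the call was lost.

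Between genes, levels were compared per length, on the deposited FPKM scale. B2M was the highest of the 9 in PC3 (50.4 FPKM), in DU145 (71.8) and in LNCAP (52.5). Next came HLA-C, with 10.6 FPKM in PC3, 55.8 in DU145 and 48.7 in LNCAP. The lowest was NLRC5 in PC3 (0.115 FPKM) and in DU145 (1.1), and PSMB8 in LNCAP (0.252). The FPKM gap between B2M and HLA-C was widest in PC3. The listed gene lengths are the union of all annotated exons, so a gene with long rarely used exons has a lower FPKM than 1 transcript would give: B2M is listed at 6079 bases, against 1705 for its principal transcript.

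For each member, the protein-coding gene at 5 CPM or more whose pair of log2 ratios, PC3 and DU145 each against LNCAP, lay nearest was found among 12168 genes over the 3 lines. These were CXCR4 for HLA-B (distance 0.217 on the log2 scale), ZNF382 for HLA-C (0.0521), CTNS for B2M (0.00396), CTSF for TAP1 (0.0271) and TEC for TAP2 (0.035). They were MMP17 for PSMB8 (0.0752), EPB41L4A for PSMB9 (0.261), SDR16C5 for ERAP2 (0.0464) and PARM1 for NLRC5 (0.13). Within 0.5 of the B2M pattern there were 1396 genes, against 6 for HLA-B, 11 for PSMB9 and 13 for ERAP2. With 3 libraries a close match is a description only.

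The genes beside these in the pathway were read from lists. Calls in each list below stand beside the shares over all tested genes, 13.0% higher and 13.3% lower in PC3 against LNCAP. These shares were 13.7% and 12.1% in DU145 against LNCAP, and 8.54% and 10.6% in PC3 against DU145. Among 10 genes of peptide loading and folding, 0 were called higher and 1 lower (TAPBPL) in PC3 against LNCAP, 0 either way in DU145 against LNCAP, and 0 higher and 1 lower (TAPBPL) in PC3 against DU145. The medians were -0.42 in PC3 against LNCAP, -0.03 in DU145 against LNCAP and -0.17 in PC3 against DU145. TAPBPL, a peptide editor related to tapasin, had 24 counts in PC3, 115 in DU145 and 237 in LNCAP. TAPBP, tapasin itself, which holds the heavy chain at the transporter, had 1311 counts in PC3, 3965 in DU145 and 1829 in LNCAP, and no ratio was called. Among 9 proteasome partners 0 were called higher, and the 1 called lower in PC3 against LNCAP and against DU145 was PSMB10. Their medians were -0.59 in PC3 against LNCAP, -0.26 in DU145 against LNCAP and -0.44 in PC3 against DU145.

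Of 13 transcription factors that act on class I promoters, 0 were called in any pair, with medians of -0.10 in PC3 against LNCAP, 0.09 in DU145 against LNCAP and -0.10 in PC3 against DU145. IRF1, an interferon-induced activator of these genes, had 103 counts in PC3, 365 in DU145 and 187 in LNCAP. RFX5, which binds with NLRC5 at the promoters, had 1003 counts in PC3, 2889 in DU145 and 1554 in LNCAP. Both had the order of NLRC5, lowest in PC3 and highest in DU145, and none of their ratios was called. The log2 ratio of PC3 against DU145 was -1.78 for IRF1 and -1.49 for RFX5. Of the 13 factors, 6 were higher in PC3 than in DU145 and 7 were lower, so IRF1 and RFX5 do not stand for the list.

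Of 11 interferon receptor and signalling genes 10 were tested. In PC3 and in DU145, each against LNCAP, 1 was called higher (JAK1) and 0 lower, and 0 were called between PC3 and DU145. The medians were 0.02 in PC3 against LNCAP, 0.01 in DU145 against LNCAP and 0.13 in PC3 against DU145. JAK1, a kinase of the interferon receptors, had 1566 counts in PC3, 1466 in DU145 and 147 in LNCAP, 10.9-fold higher in PC3 (9.2 to 13.0) and 9.96-fold higher in DU145 (8.4 to 11.9) than in LNCAP. IFNGR1, a chain of the interferon gamma receptor, had 236 counts in PC3, 471 in DU145 and 765 in LNCAP, with no ratio called.

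Of 25 interferon-stimulated genes 24 were tested. In PC3 against LNCAP 5 were called higher and 3 lower (median 0.49), in DU145 against LNCAP 3 higher and 5 lower (median -0.72), and in PC3 against DU145 5 higher and 1 lower (median 0.65). Of all tested genes 13.0% were called higher and 13.3% lower in PC3 against LNCAP. In DU145 against LNCAP these shares were 13.7% and 12.1%, and in PC3 against DU145 8.54% and 10.6%. BST2, which tethers virus particles, had 0 counts in PC3 and in DU145 and 27 in LNCAP. IFI44L had 74 counts in PC3, 1 in DU145 and 15 in LNCAP. DU145, highest for the 9 class I genes, was not the highest for BST2 or IFI44L. These are 2 of the 24 genes, and 3 others were called higher in DU145 than in LNCAP.

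Of 13 other class I-like genes 11 were tested. Against LNCAP, 2 were called higher and 2 lower in PC3 (median 0.51), and 2 higher and 1 lower in DU145 (median 1.45). In PC3 against DU145 0 were called higher and 3 lower, HLA-F, HFE and MR1 (median -0.32). HLA-F, a nonclassical class I heavy chain, had 13 counts in PC3, 158 in DU145 and 49 in LNCAP, the order of HLA-B, and was 11.9-fold lower in PC3 than in DU145 (6.74 to 22.8). MICB, a stress ligand read by natural killer cells, had 315 counts in PC3, 738 in DU145 and 0 in LNCAP, which against a LNCAP level of 3 counts is at least 107.4-fold higher in PC3 and, in DU145, at least 245.6-fold higher. FCGRT, a heavy chain that carries antibodies, had 518 counts in PC3, 289 in DU145 and 1 in LNCAP, a ratio of 530.0 in PC3 (94.7 to 20970) and 288 in DU145 (51.4 to 11430). HLA-E, which presents class I leader peptides, had 2175 counts in PC3, 1701 in DU145 and 621 in LNCAP, with PC3 highest.

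Class II genes are normally restricted to antigen-presenting cells. Of 9 listed 7 were tested. In PC3 against LNCAP 0 were called higher and 4 lower (median -2.81), in DU145 against LNCAP 2 higher and 0 lower (median -0.55), and in PC3 against DU145 0 higher and 5 lower (median -5.05). With genes at 0 set to their bound, the medians were -2.38 in PC3 against LNCAP and -3.29 in PC3 against DU145. CD74, the invariant chain that guides class II molecules, had 7 counts in PC3, 254 in DU145 and 19 in LNCAP, 13.3-fold higher in DU145 than in LNCAP (8.37 to 22.5) and 35.4-fold lower in PC3 than in DU145 (16.9 to 88.9). HLA-DMA, a chain of the class II peptide editor, had 32 counts in PC3, 88 in DU145 and 232 in LNCAP. HLA-DRB1 had 0 counts in PC3, 49 in DU145 and 0 in LNCAP, and HLA-DQB1 had 0 in PC3, 36 in DU145 and 45 in LNCAP. HLA-DRA, with 0 counts in PC3, 7 in DU145 and 16 in LNCAP, was among the genes called lower, but its bound was only at least 5.21-fold lower in PC3 than in LNCAP and at least 2.28-fold lower in PC3 than in DU145.

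**Figure D5:**
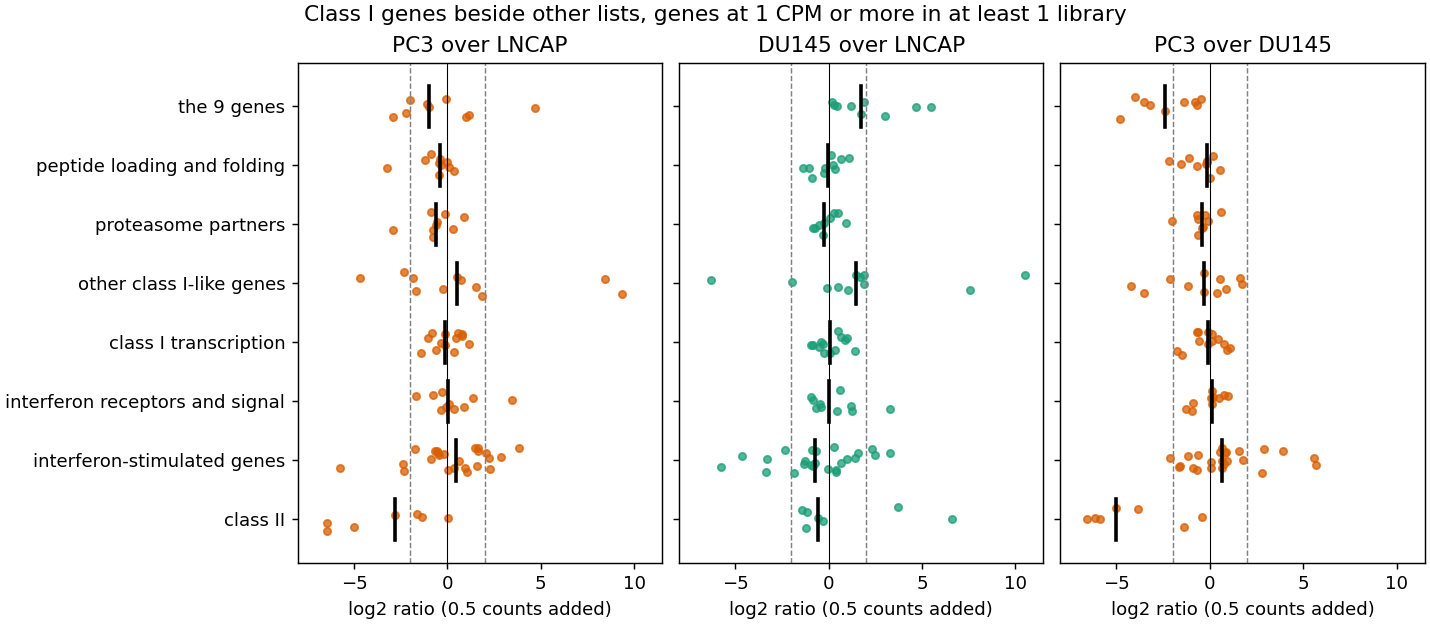
Log2 ratios (0.5 counts added) of the tested genes in each list for PC3 over LNCAP, DU145 over LNCAP and PC3 over DU145; points are genes, thick bars are medians and dashed lines mark 4-fold. The 9 class I genes have a median of -2.38 in PC3 over DU145, and the class I transcription list has no gene past the dashed lines.

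Finally, the castration-resistant lines were set together against LNCAP, as the series design does, with edgeR's quasi-likelihood test. The spread within the class is then the difference between PC3 and DU145, with 1 residual degree of freedom. Of the 9 genes 0 passed a Benjamini-Hochberg adjusted p of 0.05, where 0% of all tested genes passed (0 of 18025, with 1745 at an unadjusted p under 0.05). PSMB8 had the largest log2 ratio, 5.2 (edgeR adjusted p = 0.341, unadjusted p = 0.00808, higher in 2 of 2 lines), followed by ERAP2 at 3.82 (edgeR adjusted p = 0.619, higher in 2 of 2 lines). Without DU145 the ERAP2 log2 ratio was 1.14, and without PC3 it was 4.70. HLA-B was at 0.93 (edgeR adjusted p = 0.907), a mean of 1 line lower and 1 line higher than LNCAP. By DESeq2, 1 of the 9 genes passed, PSMB8 (log2 ratio 5.22, adjusted p = 4.15e-05), where 8.78% of the genes it tested passed. By limma-voom 0 genes passed, with 1335 at an unadjusted p under 0.05.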

How the data were processed

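The authors deposited, for each of the 3 libraries, unnormalised whole-number counts for every gene and, in a second table, FPKM. Each deposited FPKM value was the same count over gene length and over a divisor fixed within the library, which was 1.005, 0.988 and 1.034 times the total of PC3, DU145 and LNCAP. Per the submitters' processing notes, the tools were Cufflinks and Cuffdiff, both 2.1.1, TopHat2 2.0.9 and Bowtie2 2.0.6, with no roles stated. Program and strand setting of the counting, and the build, could not be taken from a label or header (not given in the sources used here). Each of the 58735 identifiers matched GENCODE release 29 with its coordinates, so coordinates are on GRCh38.

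TMM factors were computed on the 18025 genes that reached 1 CPM in some library (edgeR 4.0.16, R 4.3.3) and were 0.998 in PC3, 0.987 in DU145 and 1.016 in LNCAP. Ratios of scaled counts carry exact conditional binomial (Clopper-Pearson) 95% intervals (Python 3.11.15, scipy 1.17.1, numpy 2.4.6, pandas 2.3.3). As the reads carry no molecular identifiers, reads of 1 molecule may be counted repeatedly, and intervals cover counting error only. A bound against a count of 0 uses 3 counts in that library, which is 0.196 CPM in PC3, 0.189 in DU145 and 0.195 in LNCAP. The class comparison used edgeR's quasi-likelihood test, with DESeq2 1.42.0 and limma 3.58.1 as alternatives. P-values there measure only the spread between these libraries. The ratio calls were tested on simulated counts before use.

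The 9 genes, the lists, the motifs and the tests were chosen with earlier results of these data known. The text names all 9 genes, the 2 members of each list with the largest ratio in any pair, genes named for their role beside a member, overlapping or neighbouring genes, and the nearest gene in pattern; 1 gene named by this rule is not reported here. CD79A, CD74, HLA-DRA, HLA-DMA, HLA-F, MR1 and HFE were named after their values were seen. The second order of the interferon-response motif and the search for shared transcript stretches were added after seeing the data; a comparison of protein sequences was not run. Alternatives were other scalings, filters, added counts, FPKM in place of counts, other fold thresholds and leaving out each castration-resistant library.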

Additional observations from a re-analysis of the deposited data

Results flagged for a closer look

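For 6 genes, PC3 and DU145 lay on opposite sides of LNCAP, with both counting intervals excluding a ratio of 1. The log2 ratio against LNCAP was -2.93 in PC3 and 1.88 in DU145 for HLA-B, -2.21 in PC3 and 0.17 in DU145 for HLA-C, and -0.08 in PC3 and 0.43 in DU145 for B2M. It was -1.08 in PC3 and 0.31 in DU145 for TAP1, -0.99 in PC3 and 3.01 in DU145 for PSMB9, and -2.02 in PC3 and 1.20 in DU145 for NLRC5. With 1 library per line the difference between the 2 effects was not tested, and both use the same LNCAP library. The share of all tested genes that lie on opposite sides of LNCAP in this way was not counted. A gene with many counts, such as B2M, meets the criterion at a small ratio.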

How the results depend on the processing

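Of 162 recomputed member ratios under other scalings, other added counts and FPKM, 157 kept their direction and their side of the 4-fold threshold, 5 kept direction and lost the call, and 0 reversed. A filter on low counts leaves a gene's own ratio as it is. The 5 were NLRC5 in PC3 against LNCAP with 5 added counts (-1.83), with 0.1 added to FPKM (-1.41) and with 1 added (-0.40), and, with 1 added to FPKM, NLRC5 in PC3 against DU145 (-0.91) and PSMB9 in DU145 against LNCAP (1.94). These additions shrink ratios of low genes by construction. At a 2-fold threshold 7 of the 9 genes were called in PC3 against LNCAP and 6 in DU145 against LNCAP, and 8-fold calls were 1 in PC3 against LNCAP, 3 in DU145 against LNCAP and 4 in PC3 against DU145, where 18.2%, 17.5% and 12% of all tested genes were called in the same order of pairs. Over all 18025 tested genes, 4-fold calls numbered 4747 (26.3%) in PC3 against LNCAP, 4652 (25.8%) in DU145 against LNCAP and 3449 (19.1%) in PC3 against DU145. In the same order of pairs these became 2943 (22%), 2823 (21.1%) and 2048 (15.3%) of the 13377 genes left by a 5 CPM filter, 1654, 1552 and 997 with 1 added to FPKM, and 8321 (46.2%), 8287 (46%) and 6814 (37.8%) at 2-fold; at 8-fold the PC3 against DU145 count was 2159. Of 63 recomputed list medians 58 moved by less than the median counting error of their genes; with the 5 CPM filter, class I transcription in PC3 against LNCAP was 0.13, interferon receptors and signal in DU145 against LNCAP 0.43, and class II 1.15 in DU145 against LNCAP and -3.23 in PC3 against DU145 (-2.77 with 5 added counts). In the class comparison DESeq2 called 1 of the 9 genes and 1306 of all genes, against 0 by edgeR, and limma-voom gave -0.51 for HLA-B and -0.40 for NLRC5, the reverse of edgeR; the cause was not tested. Leaving out DU145 or PC3 in turn gave class log2 ratios, with no test, of -2.93 to 1.88 for HLA-B, -2.21 to 0.17 for HLA-C, -0.08 to 0.43 for B2M, -1.08 to 0.31 for TAP1, -0.99 to 3.01 for PSMB9, -2.02 to 1.20 for NLRC5, 1.01 to 1.73 for TAP2, 4.70 to 5.51 for PSMB8 and 1.14 to 4.70 for ERAP2. No paired analysis was possible because each line has 1 library and no replicate numbers to pair. Depth limits PSMB8 in LNCAP (12 counts), PSMB9 in PC3 (15) and NLRC5 in PC3 (22) most.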

Other observations

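Between the outermost of the 6 class I genes on chromosome 6 (31268749 to 32859585, GRCh38), 58 other genes were tested. In PC3 against LNCAP 10 of these were called higher and 6 lower (17.2% and 10.3%, median log2 ratio 0.63), in DU145 against LNCAP 13 higher and 3 lower (22.4% and 5.17%, median 0.70), and in PC3 against DU145 2 higher and 7 lower (3.45% and 12.1%, median -0.05). Over all tested genes the shares called higher and lower were 13.0% and 13.3% in PC3 against LNCAP. They were 13.7% and 12.1% in DU145 against LNCAP, and 8.54% and 10.6% in PC3 against DU145. The median of the 6 class I genes inside was -1.88 in PC3 against DU145. Next to NLRC5 on chromosome 16, CPNE2 had 247 counts in PC3, 1270 in DU145 and 204 in LNCAP, and HERPUD1 had 1280 counts in PC3, 920 in DU145 and 1544 in LNCAP. HFE, a class I-like gene of iron control, had 14 counts in PC3, 277 in DU145 and 73 in LNCAP, the order of HLA-B. It was 19.3-fold lower in PC3 than in DU145 (11.3 to 35.8).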
